A study of Mus musculus with 9 samples.

Results

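The 37 mouse genes described here are the Wnt ligands, their Frizzled receptors and the secreted inhibitors of the Sfrp and Dkk families that the array names. They were chosen by symbol alone: every gene whose only symbol in the platform's probe table is Wnt, Fzd, Sfrp or Dkk followed by a number and, for some, the letter a or b. These are 19 Wnt, 10 Fzd, 4 Sfrp and 4 Dkk genes of the 18193 genes on the array, covered by 73 probe sets, and a gene with several probe sets is represented by the one that averaged highest on the 9 arrays. Expression was measured in mature 3T3-L1 adipocytes, fat cells differentiated in culture from a mouse preadipocyte line, after depletion of the transcription factor Ebf1 by short hairpins. There were 3 groups of 3 arrays: cells with lentivirus for a scrambled hairpin, for Ebf1 hairpin 1 and for Ebf1 hairpin 2. All groups, the scrambled control included, went through 3 to 4 rounds of infection and at least 8 days of selection in 5 µg/ml puromycin, per the labels' protocols. The cells are 1 immortal line, transduced cells were measured in bulk, and the virus was given to cultures that had already been differentiated. Such cultures need not hold adipocytes alone. The titles call the arrays of a group repeats and leave unsaid whether separate cultures lie behind them, so the p-values speak only of differences from array to array, possibly technical ones.

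Wnt proteins are secreted, lipid-modified ligands that bind Frizzled receptors on the cell surface. With the co-receptors Lrp5 and Lrp6 they stabilise beta-catenin, which enters the nucleus and works with TCF/LEF factors, while other Wnt and Frizzled pairs act through Ror receptors, planar polarity proteins or calcium. Sfrp proteins carry a Frizzled-like domain and bind Wnts outside the cell, and Dkk1, Dkk2 and Dkk4 act on Lrp5 and Lrp6. In the fat lineage, Wnt signalling through beta-catenin is known for holding preadipocytes back from differentiation, with Wnt10b as the best-known ligand and Sfrp5 as an inhibitor made by adipocytes.

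The promoters of 4 of the genes that moved, and of the Wnt5a co-receptor Ror1, are printed because Ebf1 is a DNA-binding factor and because TCF/LEF factors carry the signal of this pathway to DNA. Each sequence is the 250 bases before the annotated start, 5′ to 3′ on the gene's own strand, from RefSeq on build GRCm38.p6. They lie at chr5:4758217-4758466 on the minus strand for Fzd1, chr1:64737751-64738000 on the minus strand for Fzd5, chr1:59481897-59482146 on the plus strand for Fzd7, chr6:91411354-91411603 on the minus strand for Wnt7a and chr4:100095541-100095790 on the plus strand for Ror1. Capitals mark a match on either strand to the core of the EBF motif, CCCNNGGG, or to the core of the TCF/LEF motif, CTTTGA, which reads TCAAAG on the other strand.
Fzd1: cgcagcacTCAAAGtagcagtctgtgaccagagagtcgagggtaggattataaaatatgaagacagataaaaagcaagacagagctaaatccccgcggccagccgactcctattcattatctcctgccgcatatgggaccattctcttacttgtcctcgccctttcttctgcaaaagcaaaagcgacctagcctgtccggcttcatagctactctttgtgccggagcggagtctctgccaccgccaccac
Fzd5: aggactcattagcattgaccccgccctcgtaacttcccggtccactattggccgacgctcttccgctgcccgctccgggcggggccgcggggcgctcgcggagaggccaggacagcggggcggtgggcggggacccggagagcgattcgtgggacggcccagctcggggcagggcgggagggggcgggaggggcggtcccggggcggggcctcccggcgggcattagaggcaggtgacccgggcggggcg
Fzd7: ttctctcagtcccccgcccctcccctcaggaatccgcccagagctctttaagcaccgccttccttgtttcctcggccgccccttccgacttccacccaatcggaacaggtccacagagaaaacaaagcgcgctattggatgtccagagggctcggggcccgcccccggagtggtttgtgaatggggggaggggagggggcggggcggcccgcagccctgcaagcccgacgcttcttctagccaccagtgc
Wnt7a: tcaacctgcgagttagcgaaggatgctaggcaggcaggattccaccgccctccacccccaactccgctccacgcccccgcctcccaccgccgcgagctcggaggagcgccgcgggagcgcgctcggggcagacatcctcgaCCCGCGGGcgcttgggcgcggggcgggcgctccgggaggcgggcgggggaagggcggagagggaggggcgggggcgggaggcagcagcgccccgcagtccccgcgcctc
Ror1: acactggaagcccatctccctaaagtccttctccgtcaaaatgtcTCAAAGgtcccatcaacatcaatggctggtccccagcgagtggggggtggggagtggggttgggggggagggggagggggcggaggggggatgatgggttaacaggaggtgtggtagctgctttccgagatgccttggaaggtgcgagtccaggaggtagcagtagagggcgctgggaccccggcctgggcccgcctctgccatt
The Fzd1 window held a TCF/LEF core 237 to 242 bases before the start, and the Ror1 window held one 200 to 205 bases before it. Wnt7a held an EBF core 102 to 109 bases before its start, and the windows of Fzd5 and Fzd7 held neither set of letters. Among 28 promoter windows of 25 members, 8 held the EBF core, those of Wnt1, Wnt3a, Wnt6, Wnt7a, Wnt9b, Wnt10b, Fzd9 and Sfrp5. The TCF/LEF core was in 4 of the 28, those of Wnt5b, Wnt11, Fzd1 and Dkk1. Over all 32851 promoter windows of the same length, 11.8% held the EBF core and 13.8% the TCF/LEF core. The entries for Fzd2, Fzd3 and Wnt5a are missing from the table. A match describes letters only and is not a measured binding site.

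The targeted gene was lower on the hairpin arrays than on the scrambled ones. Ebf1 read 10.12, 10.15 and 10.31 on the scrambled arrays, 9.32, 9.54 and 9.45 with hairpin 1, and 8.90, 8.72 and 9.20 with hairpin 2, in log2 expression. It fell by 0.75 with hairpin 1 (limma, adjusted p = 0.000102) and by 1.25 with hairpin 2 (adjusted p = 2.98e-07), and on this probe set the hairpin groups overlapped neither with the scrambled arrays nor with each other. On another Ebf1 probe set, 1448293_at, the falls were 1.03 and 1.30, and the hairpin groups overlapped (hairpin 2 minus hairpin 1 of -0.27, adjusted p = 0.341). On 1439789_at and 1416301_a_at hairpin 2 minus hairpin 1 was -0.52 and -0.61 (limma over all probe sets, adjusted p = 0.0094 and 0.0124). On 1416301_a_at the hairpin 1 difference from scrambled was -0.46 and did not pass (adjusted p = 0.0501). The remaining probe set, 1457441_at, lay below the filter and differed from scrambled by 0.095 and -0.094 (adjusted p = 0.590 and 0.627). Adipocyte markers marked the cells as labelled: 12 of the 13 on the array lay above the signal filter, with Lep below it, and the log2 of their summed signal was 17.20 to 17.25 on scrambled, 17.20 to 17.23 on hairpin 1 and 17.17 to 17.19 on hairpin 2 arrays. Of those 12, 1 was higher and 1 lower with hairpin 1, and 0 were higher and 3 lower with hairpin 2. Of 14 fibroblast and preadipocyte markers on the array, 12 were tested, with Cd34 and Gata3 below the filter. Of the 12, 11 were higher and 0 lower with hairpin 1, and for hairpin 2 the counts were 9 and 1. Over all genes tested, 23.7% were higher and 9.23% lower with hairpin 1, and 21.5% and 13.3% with hairpin 2. The log2 of the summed signal of the 14 fibroblast and preadipocyte markers was 16.02 to 16.13 on scrambled arrays. It was 16.52 to 16.59 with hairpin 1 and 16.57 to 16.60 with hairpin 2. The part of these markers in the results for Wnt genes was not tested. In a culture measured in bulk, fewer cells of a type and less RNA per cell cannot be told apart. Of 8 leukocyte markers on the array, Ptprc, Adgre1 and Itgam lay below the filter and 5 were tested; Laptm5 fell by 1.22 with hairpin 1 and fell by 1.82 with hairpin 2, and Cd68 was higher by 1.18 with hairpin 2. The log2 of the summed leukocyte signal was 10.33 to 11.13, 9.75 to 10.19 and 9.48 to 10.10 in the 3 groups, and its part was not tested. Of 6 endothelial markers, 5 lay below the filter. Of 6 osteoblast and chondrocyte markers, 4 were tested; Sox9 fell by 0.29 with hairpin 1 and Alpl rose by 0.28 with hairpin 2.

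Of the 37 genes, 25 were tested, because their mean over all 9 arrays reached 5.72, the 30th percentile of all genes: 11 Wnt, 10 Fzd, 3 Sfrp and 1 Dkk gene. The other 12 were Wnt1, Wnt2, Wnt3, Wnt8a, Wnt8b, Wnt9a, Wnt11, Wnt16, Sfrp2, Dkk1, Dkk2 and Dkk4, whose values on single arrays ran from 4.04 to 5.93. The nearest genes outside the filter were Wnt9a and Wnt11, with means of 5.55 and 5.66, and the nearest inside were Wnt2b and Fzd6, with 5.73 and 5.76. At 17 of the 37 genes at least 2 arrays carried an identical value. Signals of different probe sets have no common scale, so the levels of different genes are not ranked.

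**Figure D1:**
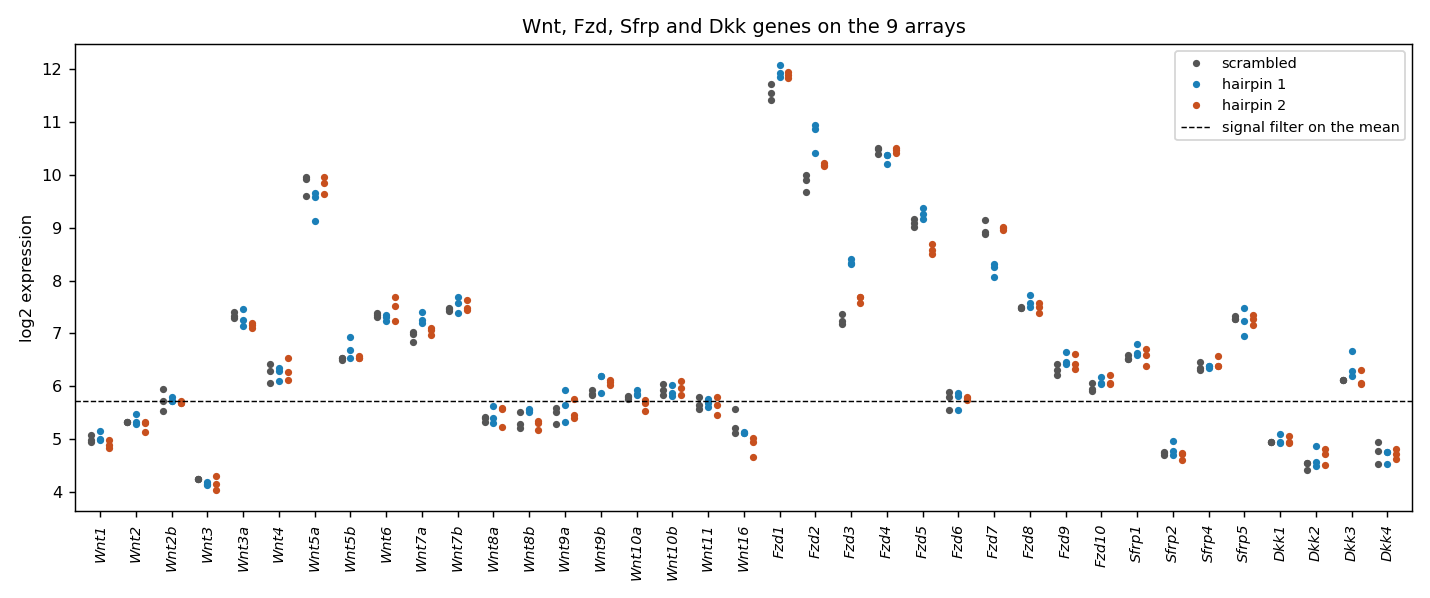
Log2 expression (y axis) of the 37 Wnt, Fzd, Sfrp and Dkk genes (x axis) on each of the 9 arrays, 1 point per array, coloured by group, with the signal filter of 5.72 as a dashed line. The groups separate most clearly at Fzd2, Fzd3, Fzd5 and Fzd7, and 12 genes have means below the line.

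With hairpin 1, 6 of the 25 tested genes changed at an adjusted p below 0.05, 4 upward (Wnt7a, Fzd1, Fzd2 and Fzd3) and 2 downward (Wnt5a and Fzd7). Over all 12735 genes tested, 33.0% changed in that comparison, 23.7% upward and 9.23% downward. With hairpin 2, 4 of the 25 changed, Fzd1, Fzd2 and Fzd3 upward and Fzd5 downward, against 34.8% of all genes, 21.5% upward and 13.3% downward. Between the hairpins, 4 of the 25 differed, Fzd7 higher and Fzd2, Fzd3 and Fzd5 lower with hairpin 2, against 29.1% of all genes, 11.6% higher and 17.4% lower. The share of the 25 genes called was below that of all genes at this filter. When only genes above the 50th percentile of signal were kept, the counts were 5, 4 and 4 of 9 genes beside 42.5%, 43.9% and 38.1% of all genes. The lower share was thus not seen with that filter, and 9 genes are too few to order the shares. The difference in share was not tested. The median log2 difference of the 25 genes was 0.097 with hairpin 1 and 0.026 with hairpin 2, beside 0.067 and 0.024 over all genes tested. By family, 4 of 10 Frizzleds were called in each of the 3 comparisons, 40% beside the 33.0%, 34.8% and 29.1% of all genes. Of the ligands, 2 of 11 were called with hairpin 1 and 0 of 11 with hairpin 2, and 0 of the 4 tested inhibitors throughout. A difference between the families was not tested. At an unadjusted p below 0.05 in limma, 3 ligands passed with hairpin 1 and 0 with hairpin 2, and 1 inhibitor, Dkk3, passed with hairpin 1 and between the hairpins. Both hairpin comparisons share the 3 scrambled arrays, so their values are given side by side and are not independent of each other.

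**Figure D2:**
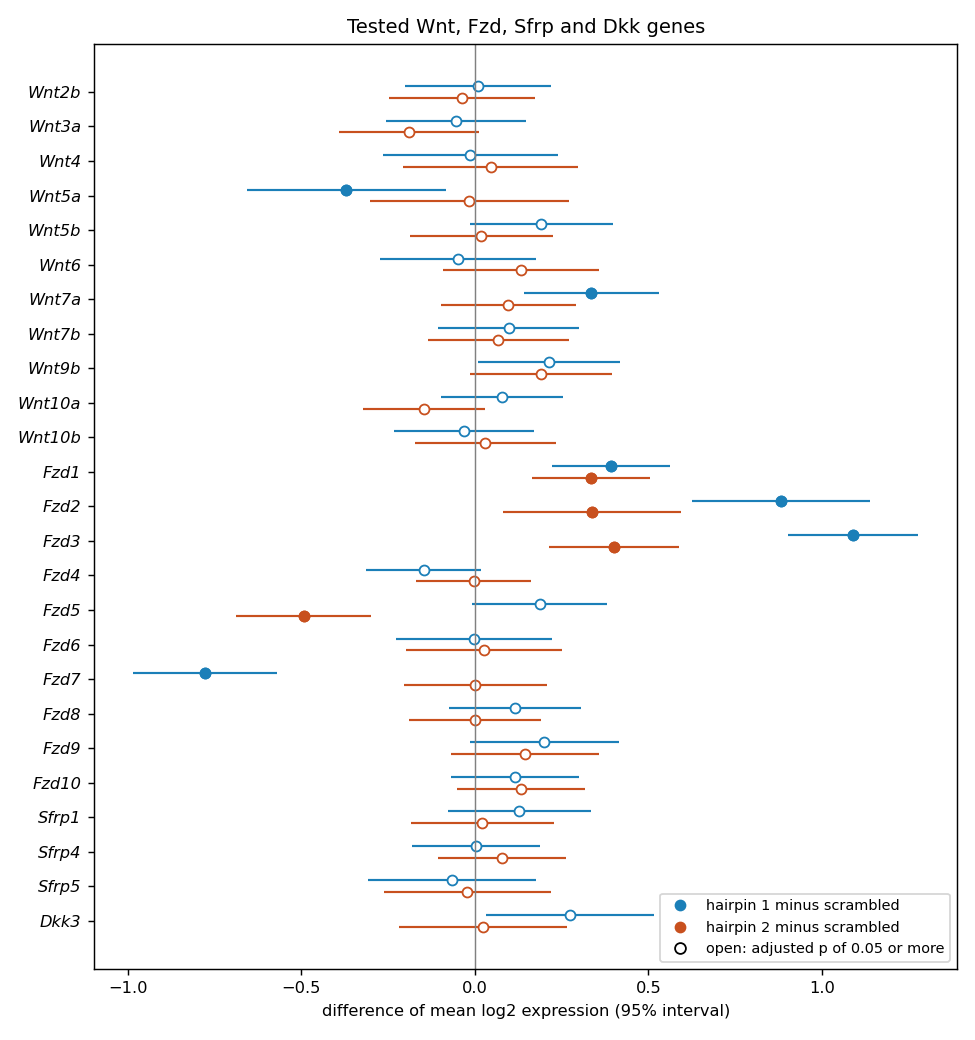
Difference of mean log2 expression from the scrambled arrays (x axis, with 95% intervals) for the 25 tested genes (y axis), hairpin 1 in blue and hairpin 2 in orange, with filled points where the adjusted p was below 0.05. Filled points stand at 4 Frizzleds for each hairpin, and at Wnt5a and Wnt7a for hairpin 1 alone, a difference between hairpins that did not pass its own test.

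Among the ligands, Wnt5a and Wnt7a were called with hairpin 1, in opposite directions, and neither with hairpin 2. Wnt5a, a ligand best known for signalling through Ror receptors without beta-catenin, read 9.92, 9.96 and 9.60 on the scrambled arrays, 9.58, 9.66 and 9.13 with hairpin 1, and 9.84, 9.64 and 9.95 with hairpin 2. The groups overlapped, with 1 low array in hairpin 1 and 1 scrambled array near the other hairpin 1 values. Its mean fell by 0.37 with hairpin 1 (SE 0.135, adjusted p = 0.0449, limma) and the hairpin 2 difference was -0.017 (adjusted p = 0.948), while hairpin 2 minus hairpin 1 was 0.35 (adjusted p = 0.0605), a difference that passed without hairpin 1 repeat 1 (0.0407) or 2 (0.0342) and without hairpin 2 repeat 2 (0.0424). The hairpin 1 call was lost in 9 of 18 alternative settings, among them the fits without scrambled repeat 1 (adjusted p = 0.152), without scrambled repeat 2 (0.169), without hairpin 1 repeat 3 (0.247), without hairpin 2 repeat 1 (0.0592) and without hairpin 2 repeat 3 (0.0525).

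A second Wnt5a probe set, 1448818_at, gave another picture. It read 8.14, 8.18 and 8.12 on the scrambled arrays, 8.09, 8.47 and 8.01 with hairpin 1, and 8.49, 8.58 and 8.72 with hairpin 2. Here hairpin 2 stood above all other arrays and hairpin 1 overlapped with scrambled. In a fit over all 45037 probe sets that are not controls, where 15.1% were called with hairpin 1 and 17.5% with hairpin 2, this probe set differed by 0.04 with hairpin 1 (adjusted p = 0.864) and rose by 0.45 with hairpin 2 (adjusted p = 0.0141). In the same fit, the probe set used above had an adjusted p of 0.0898 with hairpin 1. On each of these probe sets hairpin 2 was above hairpin 1 on average, by 0.35 (adjusted p = 0.118) and 0.41 (adjusted p = 0.0338) in that fit. When its probe sets were averaged the gene was not called with either hairpin (adjusted p = 0.164 and 0.145), while hairpin 2 minus hairpin 1 was 0.28 (adjusted p = 0.0100).

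Wnt7a, a ligand studied mainly in the nervous system, limb and muscle, read 6.84, 6.995 and 7.02 on the scrambled arrays, 7.20, 7.26 and 7.40 with hairpin 1, and 7.10, 7.07 and 6.97 with hairpin 2. All hairpin 1 arrays lay above all others, and hairpin 2 overlapped with scrambled. It rose by 0.34 with hairpin 1 (SE 0.0912, adjusted p = 0.0101, limma); the hairpin 2 difference was 0.097 (adjusted p = 0.472), and hairpin 2 minus hairpin 1 was -0.24 (adjusted p = 0.0617, and 0.0352 without hairpin 1 repeat 1). The hairpin 1 call was lost without scrambled repeat 1 (adjusted p = 0.0650), without hairpin 1 repeat 3 (0.0586) and when its probe sets were averaged (0.611), and a second probe set, 1423367_at, differed by -0.035 and -0.034 with the hairpins (adjusted p = 0.863 and 0.885).

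The other 9 tested ligands were not called in any of the 3 comparisons. Their differences from scrambled ran from -0.056 to 0.21 with hairpin 1, with 95% intervals between -0.27 and 0.42. With hairpin 2 the 11 tested ligands ran from -0.19 to 0.19, with intervals between -0.39 and 0.40, so changes of that size are not excluded. Without hairpin 1 repeat 1, Wnt9b and Wnt5b were higher with hairpin 1 by 0.32 and 0.28 (limma, adjusted p = 0.00870 and 0.0292). That fit called 42.6% of all genes. With array weights, where 58.6% of all genes were called, Wnt9b and Wnt5b also passed (adjusted p = 0.000470 and 0.0265), as did Wnt3a (-0.18, adjusted p = 0.0324). Wnt10b, the ligand that holds preadipocytes undifferentiated, read 5.84, 6.04 and 5.93 on the scrambled arrays, 5.88, 6.03 and 5.82 with hairpin 1, and 6.10, 5.98 and 5.83 with hairpin 2. These values are close to the filter and the groups overlapped (differences of -0.031 and 0.030, adjusted p = 0.840 and 0.856). Wnt6, which with Wnt10a and Wnt10b has been linked to the block of fat cell formation, read 7.31, 7.34 and 7.39 on the scrambled arrays, 7.34, 7.32 and 7.23 with hairpin 1, and 7.69, 7.53 and 7.23 with hairpin 2. The hairpin 2 arrays spread around the scrambled ones and the difference of 0.13 did not pass the test (adjusted p = 0.375). Without hairpin 2 repeat 3 it was 0.26 (adjusted p = 0.0436), and hairpin 2 minus hairpin 1 was then 0.31 (adjusted p = 0.0244). Wnt7b gave differences of 0.097 and 0.067 with the hairpins (adjusted p = 0.476 and 0.655). At Wnt10a, the hairpin 1 arrays (5.83, 5.85 and 5.93) lay above and the hairpin 2 arrays (5.73, 5.53 and 5.68) below the scrambled ones (5.77, 5.79 and 5.82), all close to the filter and with no call (hairpin 2 minus hairpin 1 of -0.22, adjusted p = 0.0529).

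The 10 Frizzled receptors, which cross the membrane several times and bind Wnts through a cysteine-rich domain, were all tested. With each hairpin 4 of them were called, 40% beside 33.0% and 34.8% of all genes. Fzd1, Fzd2 and Fzd3 were higher on hairpin arrays, Fzd7 was lower with hairpin 1 and Fzd5 was lower with hairpin 2.

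Fzd3, a receptor known for axon guidance and planar polarity, read 7.17, 7.37 and 7.23 on the scrambled arrays, 8.33, 8.40 and 8.30 with hairpin 1, and 7.70, 7.57 and 7.70 with hairpin 2. The groups did not overlap, with hairpin 1 highest and hairpin 2 between it and scrambled. It rose by 1.09 with hairpin 1 (SE 0.0883, 2.13-fold, adjusted p = 1.71e-07, limma) and by 0.40 with hairpin 2 (1.32-fold, adjusted p = 0.00203). Hairpin 2 minus hairpin 1 was -0.69 (adjusted p = 2.4e-05). This pattern belongs to 1 of 6 Fzd3 probe sets, 1450135_at. Of the 3 others above the filter, 1421157_at differed by 0.15 and 0.14 with the hairpins (adjusted p = 0.399 and 0.486) and 1449730_s_at by -0.096 and -0.0029 (adjusted p = 0.645 and 0.994). The last, 1434788_at, read 6.90, 6.82 and 6.79 on scrambled, 6.64, 6.77 and 6.78 on hairpin 1, and 7.06, 7.11 and 7.29 on hairpin 2 arrays. It rose by 0.32 with hairpin 2 (adjusted p = 0.0297) and was higher with hairpin 2 than with hairpin 1 by 0.43 (adjusted p = 0.0075), the reverse order of 1450135_at. With the mean of its probe sets, Fzd3 was higher by 0.17 with hairpin 1 (adjusted p = 0.0478), and the differences of 0.13 with hairpin 2 (adjusted p = 0.121) and -0.040 between hairpins (adjusted p = 0.672) were not called.

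Fzd2, a receptor used by Wnt5a among others, read 9.89, 9.68 and 10.00 on the scrambled arrays, 10.41, 10.87 and 10.93 with hairpin 1, and 10.22, 10.19 and 10.17 with hairpin 2. The groups did not overlap, and the order was again scrambled, hairpin 2, hairpin 1. It rose by 0.88 with hairpin 1 (SE 0.120, 1.84-fold, adjusted p = 4.04e-05, limma) and by 0.34 with hairpin 2 (adjusted p = 0.0394), and hairpin 2 minus hairpin 1 was -0.55 (adjusted p = 0.0029). The hairpin 2 call was lost in 7 of 18 settings, among them without scrambled repeat 1 (adjusted p = 0.0755), without scrambled repeat 2 (0.188) and without hairpin 2 repeat 1, 2 or 3 (0.0989, 0.0835 and 0.0801). A second probe set, 1418533_s_at, rose by 1.02 with hairpin 1 and by 0.50 with hairpin 2 (adjusted p = 0.0024) in the fit over all probe sets, where the first had an adjusted p of 0.0760 with hairpin 2. The third, 1418534_at, differed by 0.23 and 0.064 (adjusted p = 0.132 and 0.764).

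Fzd1, a receptor that can signal through beta-catenin, read 11.71, 11.41 and 11.54 on the scrambled arrays, 11.85, 12.07 and 11.93 with hairpin 1, and 11.89, 11.95 and 11.83 with hairpin 2. Every hairpin array lay above every scrambled array, and the hairpin groups overlapped. It rose by 0.39 with hairpin 1 (SE 0.0794, adjusted p = 0.00133, limma) and by 0.33 with hairpin 2 (adjusted p = 0.00352). Hairpin 2 minus hairpin 1 was -0.058 (95% interval -0.23 to 0.11, adjusted p = 0.649). Its other probe set, 1422985_at, moved the same way, from 6.93, 6.97 and 6.91 on scrambled arrays to 7.55, 7.67 and 7.61 with hairpin 1 and 7.37, 7.52 and 7.43 with hairpin 2, differences of 0.68 and 0.51. Fzd1 was called with each hairpin under all 18 alternative settings.

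Fzd7, a receptor found in many stem and progenitor cells, read 9.15, 8.89 and 8.91 on the scrambled arrays, 8.25, 8.30 and 8.06 with hairpin 1, and between 8.95 and 9.01 on the 3 arrays of hairpin 2. All hairpin 1 arrays were below all others, and hairpin 2 lay within the range of scrambled. It fell by 0.78 with hairpin 1 (SE 0.0973, 1.71-fold lower, adjusted p = 1.79e-05, limma). With hairpin 2 the difference was 0.0016 (95% interval -0.21 to 0.21, adjusted p = 0.994), and hairpin 2 minus hairpin 1 was 0.78 (adjusted p = 2.0e-05). The second probe set, 1450043_at, read lower by 0.16 and 0.15 on average and passed with neither hairpin (adjusted p = 0.447 and 0.503). When both probe sets were averaged, the gene fell by 0.47 with hairpin 1 (adjusted p = 0.000862).

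Fzd5, a receptor needed for the vessels of the yolk sac and placenta and for the eye, read 9.15, 9.09 and 9.01 on the scrambled arrays, 9.17, 9.38 and 9.27 with hairpin 1, and 8.50, 8.58 and 8.70 with hairpin 2. All hairpin 2 arrays were below all others, and all hairpin 1 arrays were above the scrambled ones by a small margin. It fell by 0.49 with hairpin 2 (SE 0.0916, 1.41-fold lower, adjusted p = 0.000493, limma), while the hairpin 1 difference of 0.19 did not pass (adjusted p = 0.135, and 0.0482 without hairpin 1 repeat 1), and hairpin 2 minus hairpin 1 was -0.68 (adjusted p = 4.0e-05). Its second probe set, 1422937_at, lies near the filter and differed by 0.25 with hairpin 1 and 0.0002 with hairpin 2 (adjusted p = 0.0822 and 1.00). When both probe sets were averaged, Fzd5 was lower by 0.25 with hairpin 2 (adjusted p = 0.0182) and higher by 0.22 with hairpin 1 (adjusted p = 0.0379).

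**Figure D3:**
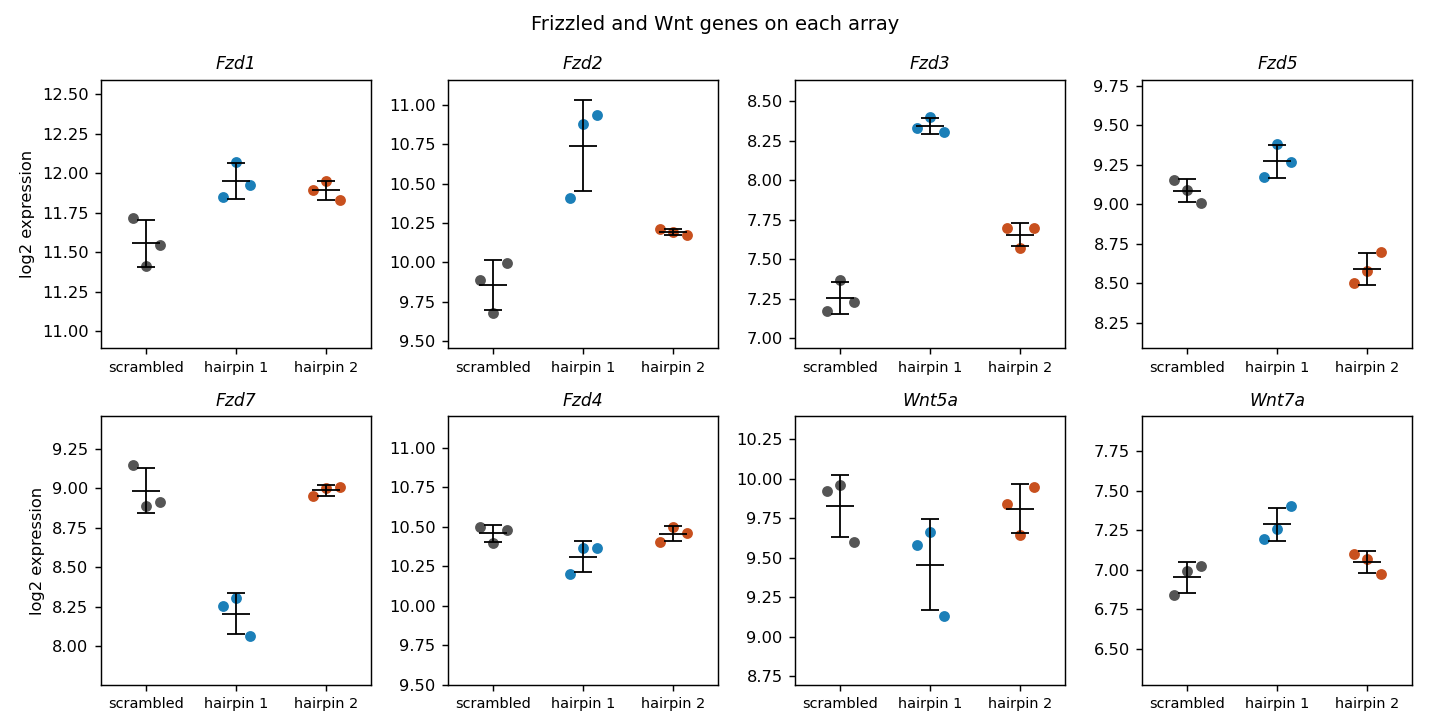
Log2 expression (y axis) of Fzd1, Fzd2, Fzd3, Fzd5, Fzd7, Fzd4, Wnt5a and Wnt7a on each array (points) by group (x axis), with the mean and SD of 3 arrays. Fzd3 reads 8.30 to 8.40 with hairpin 1 against 7.17 to 7.37 on scrambled arrays, Fzd7 is low in hairpin 1 only among these groups and Fzd5 in hairpin 2 only.

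Fzd4, a receptor best known for retinal vessel growth, was not called on the probe set used, but another of its probe sets moved. The one used, 1434756_at, read 10.50, 10.40 and 10.48 on the scrambled arrays, 10.20, 10.37 and 10.37 with hairpin 1, and 10.41, 10.50 and 10.46 with hairpin 2. Hairpin 1 lay just below scrambled without overlap (difference -0.15, adjusted p = 0.167), and hairpin 2 lay level with it (difference -0.0032, adjusted p = 0.984). The other, 1419301_at, read 9.99, 10.07 and 10.01 on the scrambled arrays, 10.22, 10.64 and 10.35 with hairpin 1, and 10.31, 10.68 and 10.36 with hairpin 2. All hairpin arrays were above the scrambled ones, with a rise of 0.38 with hairpin 1 (limma over all probe sets, adjusted p = 0.0336) and 0.43 with hairpin 2 (adjusted p = 0.0150). With quantile normalization the used probe set fell by 0.23 with hairpin 1 (adjusted p = 0.0104), so no direction is given for Fzd4. Fzd6, Fzd8, Fzd9 and Fzd10 were not called, with differences of -0.0025 to 0.20 with hairpin 1 and -0.00083 to 0.14 with hairpin 2.

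**Figure D4:**
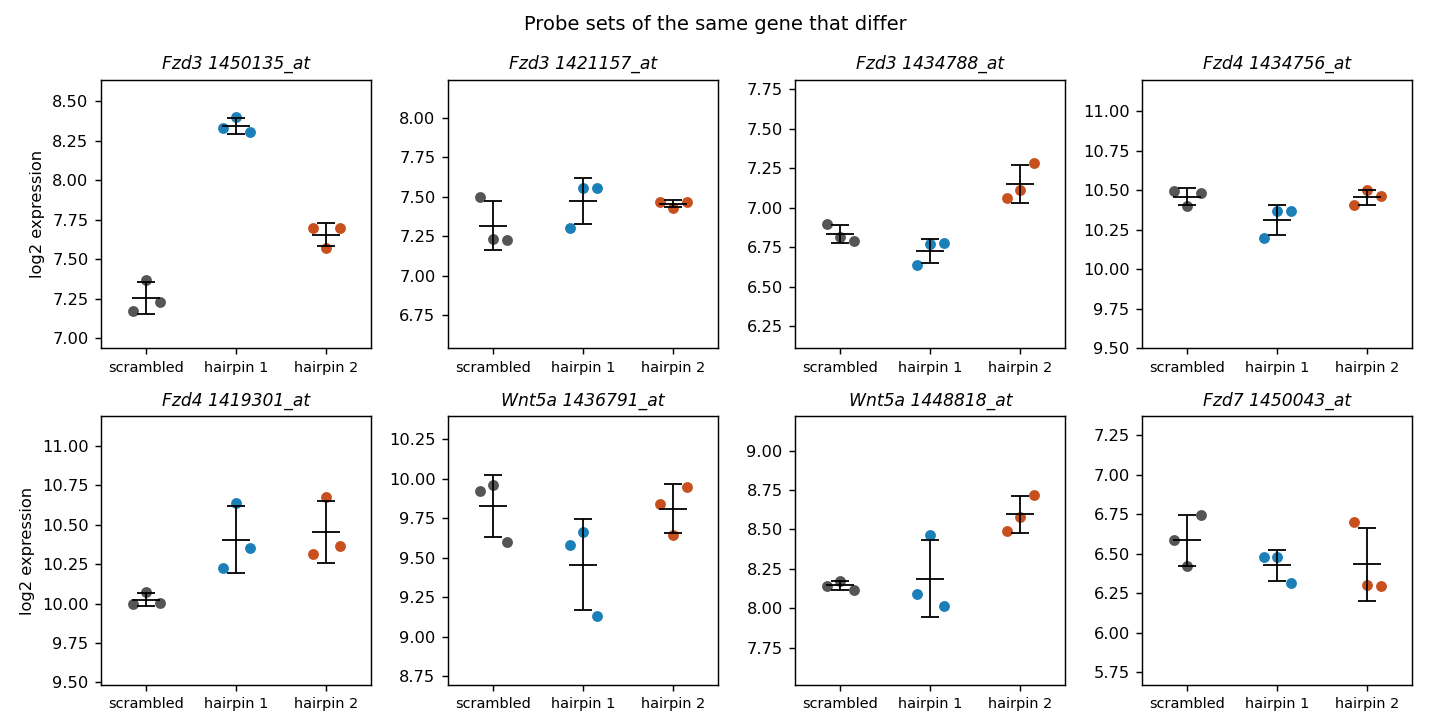
Log2 expression (y axis) by group (x axis) of 8 probe sets of Fzd3, Fzd4, Wnt5a and Fzd7, 1 panel each and 1 point per array, with the mean and SD of 3 arrays. The Fzd3 panels differ in which hairpin stands higher, and of the Fzd4 and Wnt5a pairs only the second panel holds groups that passed the test over all probe sets.

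Over the whole set, 38 of the 73 probe sets lay above the filter, and 22 genes had several probe sets. Of the 73, 7 were higher and 2 were lower at an adjusted p below 0.05 with hairpin 1, and 7 were higher and 2 lower with hairpin 2, beside 15.1% and 17.5% of all 45037 probe sets. Among the genes named so far, Fzd1 was the one whose probe sets above the filter all moved alike; those of Fzd2, Fzd3, Fzd4, Fzd5, Fzd7, Wnt5a and Wnt7a did not all pass together.

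The secreted inhibitors showed no call on the probe sets used for the genes. Of the Sfrp genes, 3 of 4 were tested and none passed with either hairpin (0 at an unadjusted p below 0.05 in limma). Sfrp1 read 6.59, 6.52 and 6.53 on the scrambled arrays, 6.63, 6.80 and 6.59 with hairpin 1, and 6.71, 6.59 and 6.39 with hairpin 2, with overlapping groups. Sfrp5, the inhibitor known from mature adipocytes, read 7.26, 7.26 and 7.32 on the scrambled arrays, 6.95, 7.23 and 7.47 with hairpin 1, and 7.26, 7.36 and 7.17 with hairpin 2. The hairpin 1 arrays spread on each side of the scrambled ones, and the differences were -0.066 (95% interval -0.31 to 0.18) and -0.021 (-0.26 to 0.22). Sfrp4 gave 0.0032 and 0.078 (adjusted p = 0.984 and 0.553), and Sfrp2 lay below the filter at 4.61 to 4.97. Of the Dkk genes, Dkk3, a relative of the Lrp-binding inhibitors with a less settled role in Wnt signalling, was the only one tested. It read 6.11, 6.11 and 6.12 on the scrambled arrays, 6.20, 6.67 and 6.30 with hairpin 1, and 6.31, 6.04 and 6.07 with hairpin 2. Hairpin 1 lay above scrambled with 1 array far above the other hairpin 1 arrays, and the difference of 0.27 did not pass (adjusted p = 0.0788, unadjusted p = 0.0294, limma). It passed without hairpin 1 repeat 1 (difference 0.37, adjusted p = 0.0234, and hairpin 2 minus hairpin 1 of -0.35, adjusted p = 0.0363). Its second probe set, 1417312_at, lies below the filter and went the other way. It read 4.95, 4.80 and 4.93 on scrambled, 4.77, 4.65 and 4.57 on hairpin 1, and 4.77, 4.77 and 4.67 on hairpin 2 arrays, a fall of 0.22 with hairpin 1 in the fit over all probe sets (adjusted p = 0.0408). Dkk1, Dkk2 and Dkk4 stayed between 4.41 and 5.10 on the 9 arrays.

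By the plain criterion that the 3 arrays of one group lie all above or all below those of the other, 9 of the 25 tested genes separated with hairpin 1, 7 with hairpin 2 and 7 between the hairpins. Over all genes tested these shares were 43.4%, 49.4% and 35.6%.

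Beside these families, 8 lists of other Wnt pathway genes held 111 genes on the array, of which 92 were tested. Hairpin 1 arrays had 28 of them higher and 7 lower, 38.0% of those tested against 33.0% of all genes. Hairpin 2 arrays had 28 higher and 10 lower, 41.3% against 34.8%. The median differences were 0.085 and 0.081, beside 0.067 and 0.024 over all genes. Counts for the single lists below are to be read beside the same shares of all genes, 33.0% and 34.8%. Ror1, which entered the test through its hairpin arrays, is among the genes counted as higher with each hairpin. No list was tested as a set.

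Of 7 tested co-receptors, 3 were higher with hairpin 1, and for hairpin 2 the counts were 4 higher and 1 lower. With Ror1 included, 42.9% and 71.4% were called, beside 33.0% and 34.8% of all genes. Ror1 is among those higher with each hairpin and entered the test through its hairpin arrays, as given below. These shares are therefore not read as a result for the list. Ror1, a receptor tyrosine kinase that binds Wnt5a, read 5.90, 5.63 and 5.44 on the scrambled arrays, 6.39, 6.53 and 6.43 with hairpin 1, and 7.46, 7.71 and 7.81 with hairpin 2. The groups stood in 3 separate steps. The means differed from scrambled by 0.79 with hairpin 1 and 2.00 with hairpin 2. On scrambled arrays the gene averaged 5.66, below the filter, so it entered the test through its hairpin arrays; it is counted above, and these differences are given as a description with no fold or p. Its other probe sets, 1429312_s_at and 1451014_at, lay below the filter and did not move (hairpin 2 differences of 0.19 and -0.029, adjusted p = 0.183 and 0.877).

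Ptk7, a kinase-dead receptor of planar polarity, rose by 0.73 and 0.46 with hairpins 1 and 2. Gpc4, a glypican that carries Wnts at the surface, rose by 0.26 with hairpin 1 and fell by 0.36 with hairpin 2. Lrp5 and Lrp6, which pair with Frizzleds for beta-catenin signalling, rose with hairpin 2 by 0.33 (adjusted p = 0.0139) and 0.24 (adjusted p = 0.0206) and differed by 0.014 and -0.036 with hairpin 1. The hairpin 2 call of Lrp5 was lost without scrambled repeat 2 (adjusted p = 0.0731). That of Lrp6 was lost without scrambled repeat 1 or 2 (adjusted p = 0.0728 and 0.0778), without hairpin 2 repeat 2 or 3 (0.0637 and 0.0721) and when its probe sets were averaged (0.152).

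Of 5 genes of Wnt processing and secretion, 0 were called with hairpin 1 in limma (2 at an unadjusted p below 0.05), and for hairpin 2 the counts were 3 higher and 1 lower. Over all genes, 33.0% were called with hairpin 1 and 34.8% with hairpin 2. Wls, the carrier that takes Wnts to the cell surface, read 11.46, 11.54 and 11.34 on the scrambled arrays, 11.44, 11.51 and 11.23 with hairpin 1, and 12.02, 11.97 and 12.10 with hairpin 2. Only hairpin 2 stood apart among the groups, with a rise of 0.58 (SE 0.0798, adjusted p = 2.7e-05), and it was higher than hairpin 1 by 0.63 (adjusted p = 2.08e-05). Porcn, the enzyme that attaches the lipid to Wnts, rose by 0.41 with hairpin 2 (adjusted p = 0.00292), and its hairpin 1 difference was 0.21 (adjusted p = 0.114). Trabd2b, which inactivates Wnts by cleaving them, rose by 0.37 with hairpin 2 (adjusted p = 0.0149), a call lost without scrambled repeat 2 (0.0551) or hairpin 2 repeat 2 (0.0917). Atp6ap2, a proton pump accessory subunit that binds Wnt receptors, fell by 0.22 with hairpin 2.

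Of 4 tested genes for R-spondins and receptor turnover (Rspo2, Lgr4, Lgr6 and Znrf3), 0 were called in limma with either hairpin (0 also at an unadjusted p below 0.05). Lgr4, an R-spondin receptor, gave 0.056 and 0.069 (adjusted p = 0.657 and 0.588). Without hairpin 1 repeat 1, Znrf3 gave -0.35 with hairpin 1 (adjusted p = 0.0181) and 0.42 between the hairpins (0.00737), beside 42.6% and 36.7% of all genes called. With array weights, Znrf3 (-0.39, adjusted p = 0.00120) and Rspo2 (0.22, 0.0138) passed with hairpin 1, beside 58.6% of all genes. Among 3 tested secreted or surface modulators of other families, Apcdd1, a membrane inhibitor of Wnt signalling, read 11.74, 11.82 and 11.70 on the scrambled arrays, 11.20, 11.24 and 11.26 with hairpin 1, and 11.23, 11.15 and 11.28 with hairpin 2. Every hairpin array was below every scrambled array, with a fall of 0.52 and 0.54 (adjusted p = 1.87e-05 and 8.48e-06). Igfbp4, a binding protein of insulin-like growth factors, rose by 0.18 with hairpin 1 (adjusted p = 0.0392), a call lost in 9 of 18 settings, among them without scrambled repeat 1 (0.194) or 3 (0.0674), hairpin 1 repeat 2 (0.135) or 3 (0.150) and hairpin 2 repeat 3 (0.0517). Draxin was not called.

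Of 25 tested transducers of the beta-catenin pathway, 8 were higher and 0 lower with hairpin 1, and for hairpin 2 the counts were 8 higher and 1 lower. These shares of 32% and 36% lay near the 33.0% and 34.8% of all genes. Ctnnb1, beta-catenin itself, read 13.58, 13.54 and 13.58 on the scrambled arrays, 13.54, 13.48 and 13.53 with hairpin 1, and 13.86, 13.76 and 13.86 with hairpin 2. Hairpin 2 was above the other groups, by 0.26 over scrambled (adjusted p = 6.75e-05) and 0.31 over hairpin 1 (adjusted p = 2.16e-05). Ctnnbip1, which keeps beta-catenin from TCF, rose by 0.51 and 0.29; the hairpin 2 call was lost without scrambled repeat 1 or 2 (adjusted p = 0.117 and 0.0806), without hairpin 2 repeat 2 or 3 (0.0571 and 0.0580) and when its probe sets were averaged (0.173), as was then the hairpin 1 call (0.128). Cxxc5, which binds Dishevelled, rose by 0.60 and 0.40, and Dact3, another Dishevelled-binding protein, rose by 0.57 and 0.74.

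Of 12 tested nuclear partners, 5 were higher and 1 lower with hairpin 1, and for hairpin 2 the counts were 4 higher and 1 lower. That is 50% and 41.7% called, beside 33.0% and 34.8% of all genes. Tcf7l1, mostly a repressor, rose by 0.35 and 0.39, Tcf7l2 rose by 0.43 with hairpin 1 and gave 0.15 with hairpin 2 (adjusted p = 0.156), and Lef1 gave 0.029 and 0.17 (adjusted p = 0.828 and 0.148). Pygo2, a co-activator, rose by 0.49 with hairpin 2 (adjusted p = 0.00114). Tle2, a Groucho co-repressor, rose by 0.50 and 0.36, the latter call being lost without hairpin 2 repeat 2 (adjusted p = 0.0641).

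Of 16 tested genes reported as targets of beta-catenin, 6 were higher and 1 lower with hairpin 1, and for hairpin 2 the counts were 5 higher and 1 lower. The shares called, 43.75% and 37.5%, stand beside 33.0% and 34.8% of all genes. Axin2, the most widely used readout of beta-catenin activity, read 5.83, 5.83 and 5.97 on the scrambled arrays, 5.83, 5.72 and 5.80 with hairpin 1, and 5.97, 5.83 and 5.75 with hairpin 2. The groups overlapped close to the filter, with differences of -0.092 and -0.024 (adjusted p = 0.457 and 0.875). Ccn4, a matricellular protein, read 7.25, 7.37 and 7.43 on the scrambled arrays, 8.91, 8.69 and 8.87 with hairpin 1, and 7.98, 7.98 and 8.00 with hairpin 2. The order was that of Fzd2 and Fzd3, with rises of 1.48 (SE 0.0906, adjusted p = 7.59e-09) and 0.64 (adjusted p = 4.19e-05), and its second probe set rose too, by 1.69 and 0.50. Cd44, a hyaluronan receptor, read 9.28, 9.25 and 9.06 on the scrambled arrays, 9.94, 10.03 and 10.17 with hairpin 1, and 10.82, 10.82 and 10.76 with hairpin 2. It rose in the other order, by 0.85 and 1.60. Fosl1, an AP-1 subunit, rose by 0.78 and 1.19, and Ccnd1, cyclin D1, rose by 0.76 with hairpin 2 and gave 0.069 with hairpin 1 (adjusted p = 0.651). Cd44 and Ccn4 are also expressed by fibroblasts, most of whose tested markers were higher as given above. The part of those cells in the values of Cd44 and Ccn4 was not tested.

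Of 20 tested genes of the planar polarity and calcium branch, 5 were higher and 4 lower with hairpin 1, and for hairpin 2 the counts were 4 higher and 4 lower. Called were 45% and 40%, beside 33.0% and 34.8% of all genes. Prickle2, a polarity scaffold, rose by 0.69 with hairpin 2 (adjusted p = 3.64e-05) and gave -0.016 with hairpin 1 (adjusted p = 0.919). The kinase subunits Camk2b and Camk2g rose by 0.47 and 0.52 with hairpin 1 and by 0.58 and 0.57 with hairpin 2. Rac1, a GTPase of the polarity branch, rose by 0.31 and 0.39, the latter call being lost with the mean of probe sets (adjusted p = 0.0797). Among those that fell was Nfatc3, a calcium-driven transcription factor named after its values were seen, by 0.44 and 0.48.

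**Figure D5:**
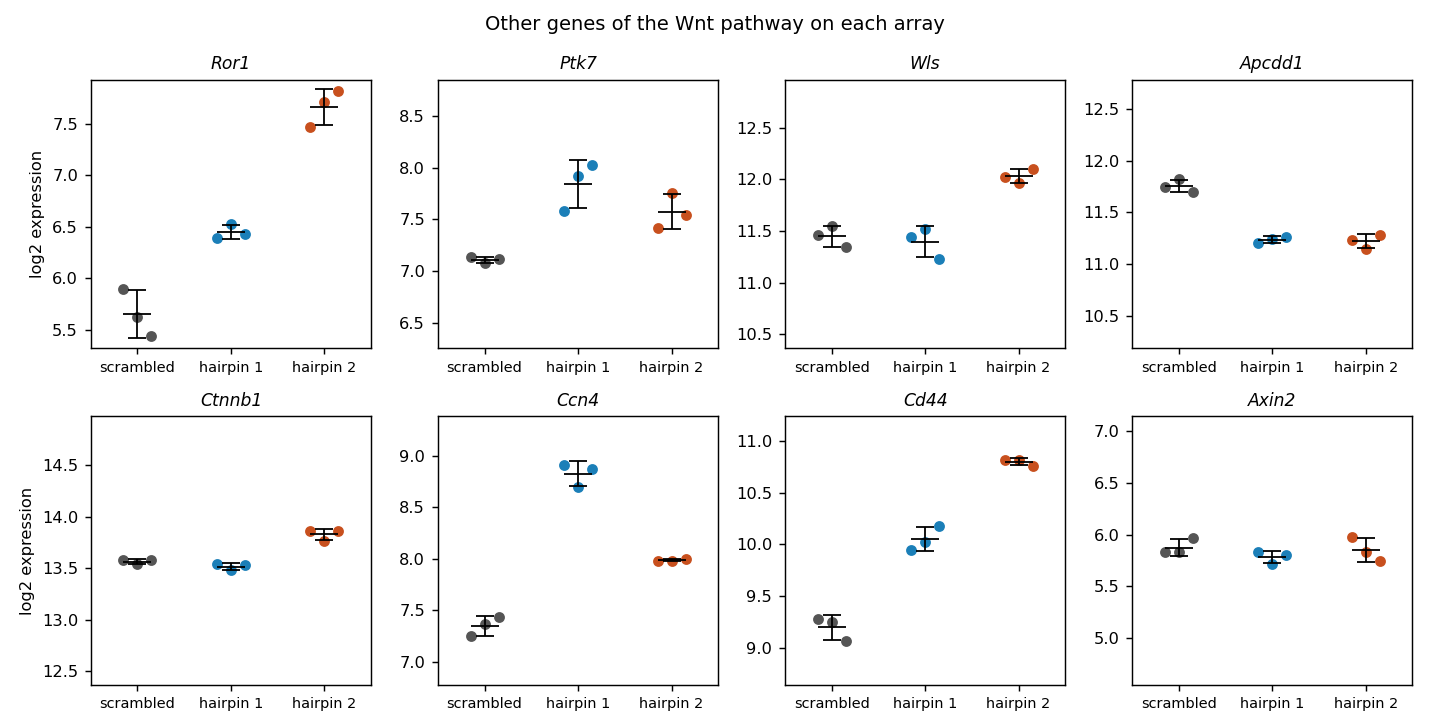
Log2 expression (y axis) of Ror1, Ptk7, Wls, Apcdd1, Ctnnb1, Ccn4, Cd44 and Axin2 on each array (points) by group (x axis), with the mean and SD of 3 arrays. Ror1 and Cd44 stand highest with hairpin 2 and Ccn4 with hairpin 1, Apcdd1 is lower in each hairpin group, and the Axin2 groups overlap.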

How the data were processed

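Per the submitters' processing notes, the authors computed the deposited values with RMA (no version given), 1 log2 value per probe set and array; RMA subtracts background, equalizes arrays and summarizes probes. Of 45101 probe sets, 64 controls were left out and 34945 named 1 gene symbol; all 37 members matched RefSeq (GRCm38.p6) by Entrez identifier. The probe set with the highest mean represented a gene. Genes with a mean of at least 5.72 (30th percentile) were tested, 12735 of 18193. limma 3.58.1 in R 4.3.3 (lmFit, eBayes with trend) was fitted to 9 arrays in 3 groups; p-values are two-sided, with Benjamini-Hochberg adjustment over all genes tested and a threshold of 0.05. A second fit used all 45037 probe sets that are not controls. The chain was tested on simulated data. Members were named with values when called in any comparison, when among the 3 with the highest mean in their family or when another of their probe sets was called while the one used was not called or lay the other way. Each pathway list gave the 4 genes with the smallest p with either hairpin, plus Lrp5, Lrp6, Ctnnb1, Axin2, Tcf7l2 and Lef1. Wnt3a, Wnt5b, Wnt9b, Wnt10a, Wnt10b, Fzd6, Fzd8, Fzd9, Fzd10, Nfatc3 and the members below the filter fall outside this rule and were named after their values were seen. The members and lists were chosen with earlier results of these data known. Alternatives covered probe set choice, filter, scaling, array weights, trend, samples fitted, replicate block and leaving out each array. Folds are antilogs of log2 differences. With 3 arrays per group, their number limits precision; 0 value columns were left over.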

Additional observations from a re-analysis of the deposited data

Results flagged for a closer look

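Between the hairpins, 16% of the 25 tested family genes were called, and 29.3% of the 92 tested pathway genes with Ror1 counted. Of all genes tested, 29.1% were called, so the genes below are listed without a claim that they stand out. Each had a difference between the hairpins that passed the test (limma, hairpin 2 minus hairpin 1, log2 units, 3 arrays per group). Among receptors it was -0.55 for Fzd2, -0.69 for Fzd3, -0.68 for Fzd5 and 0.78 for Fzd7. Among co-receptors it was 0.32 for Lrp5, 0.27 for Lrp6 and -0.63 for Gpc4. Ror1, below the filter on scrambled arrays, differed by 1.21, which is given as a description outside these calls. Its other probe sets, 1429312_s_at and 1451014_at, differed between the hairpins by 0.057 and -0.11. For secretion the difference that passed was 0.63 for Wls and -0.19 for Atp6ap2, and for the secreted modulator Igfbp4 -0.18. In the beta-catenin branch it was 0.31 for Ctnnb1, -0.28 for Tcf7l2 and 0.29 for Pygo2. Among reported targets it was 0.69 for Ccnd1, -0.84 for Ccn4, 0.41 for Fosl1 and 0.75 for Cd44, and for the polarity gene Prickle2 0.71. Of these calls, Pygo2 was lost in 9 of the 18 settings (0.18 without hairpin 2 repeat 2, adjusted p = 0.193), Igfbp4 in 8, Fosl1 in 7 (0.26 without hairpin 2 repeat 3, adjusted p = 0.159), Lrp5 in 5, Lrp6 in 2 (0.099 when its probe sets were averaged), and Atp6ap2, Tcf7l2 and Fzd3 in 1 each (-0.19 with no trend, -0.23 without hairpin 2 repeat 1 and -0.040 when the probe sets were averaged). The Pygo2 call was lost without any 1 of scrambled repeats 1, 2 and 3, hairpin 1 repeats 2 and 3 and hairpin 2 repeats 1 and 2 (adjusted p = 0.0506 to 0.193). The Igfbp4 call was lost without repeat 2 or 3 of either hairpin (0.122 to 0.143). The Fosl1 call was lost without hairpin 1 repeat 1 or 2 or hairpin 2 repeat 1 or 3 (0.0565 to 0.159), that of Lrp5 without repeat 1 or 2 of either hairpin (0.0508 to 0.0977) and that of Lrp6 without hairpin 1 repeat 3 (0.0665). Ebf1 itself was lower with hairpin 2 than with hairpin 1 by 0.50 on the probe set used. In the limma fit over all probe sets, 1439789_at and 1416301_a_at passed too (-0.52 and -0.61, adjusted p = 0.0094 and 0.0124). There 1448293_at did not pass (-0.27, adjusted p = 0.341), nor did 1457441_at, which lay below the filter (-0.19, adjusted p = 0.250). The part of the Ebf1 difference in these values was not tested. Groups of 3 arrays are too small for the outlier test used on larger groups.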

How the results depend on the processing

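No result changed direction while called under the 18 alternative settings. With array quality weights, the family genes called with hairpin 1 went from 6 to 12 (9 higher and 3 lower, while 58.6% of all genes were called), the other pathway genes from 35 to 57, and between the hairpins they went from 4 to 8 and from 27 to 44. Of all genes, 47.0% were then called between the hairpins. Leaving out 1 array gave 4 to 10 family genes with hairpin 1 (10 without hairpin 1 repeat 1), 3 to 4 with hairpin 2 and 4 to 8 between hairpins (8 without hairpin 1 repeat 1). For the other pathway genes it gave 23 to 42 (23 without scrambled repeat 1), 30 to 40 and 21 to 37. The share of all genes called moved as well. It ran from 24.2% without scrambled repeat 1 to 42.6% without hairpin 1 repeat 1 in the hairpin 1 comparison. With hairpin 2 it was 28.0% to 39.6%, and between the hairpins 22.6% to 36.7%. The cause was not tested. The split of pathway genes with hairpin 1 was 28 higher and 7 lower. It became 22 and 10 with quantile normalization and 24 and 10 with equal array medians, where 32.6% and 31.5% of all genes were called. For the family genes between hairpins, 1 higher and 3 lower became 3 and 3 with quantile normalization, beside 31.3% of all genes called. With no signal filter, Wnt16 was lower with hairpin 2 by 0.43 (limma, adjusted p = 0.00727), and Wnt8b differed between hairpins by -0.27 (adjusted p = 0.0374). Same-numbered arrays of different groups did not deviate together (correlations of -0.29 to 0.25, over 0.1 in 3 of 9 pairs). The fit with the replicate block called 6, 4 and 5 family genes and 34, 38 and 31 pathway genes in the 3 comparisons, beside 33.6%, 35.1% and 29.5% of all genes. Wnt5a then passed between hairpins (0.35, adjusted p = 0.0443). Values near the filter lie close to the array's floor, where differences are compressed.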
